A study of Mus musculus with 6 samples.

Results

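The cytosolic ribosomal protein genes were followed in RNA sequencing libraries made from the ovaries of newborn mice at 1 day post partum (dpp). Members were the protein-coding rows of the deposited expression table whose symbol reads Rpl or Rps followed by a number, with an optional letter, together with the P stalk genes Rplp0, Rplp1 and Rplp2 and Rpsa. This rule took 86 of 47122 rows. Of these, 77 were counted as core genes, 31 of the small subunit and 46 of the large subunit, and 9 were paralogues whose symbol carries a letter l for "like" and which are described apart. The 2 groups compared were conditional knockout ovaries (cKO, 3 libraries), in which Bcas2 had been deleted in oocytes, and wild-type ovaries (WT, 3 libraries), both at 1 dpp. Bcas2 is a subunit of the PRP19 spliceosomal complex, and the design sets its absence from oocytes against the normal ovary. The labels do not name the Cre driver, the deleted exons or the strain, nor do they say whether a library is 1 animal or a pool. The p-values therefore rest on the spread between libraries, which may be partly technical. Granulosa cells are mentioned in a description label, but title, tissue and design all name the ovary, which is how the libraries are treated here.

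The cytosolic ribosome is built from a small subunit, which decodes the messenger RNA, and a large subunit, which joins the amino acids. Ribosomal proteins are needed in balanced amounts with the ribosomal RNAs, and the protein genes are known to be expressed at high levels and in step with each other in dividing and growing cells. In mammals most of their mRNAs start with a terminal oligopyrimidine tract, through which mTOR signalling and LARP1 set their translation. Each functional gene has many processed copies elsewhere in the genome, most of them pseudogenes. In newborn ovaries the oocytes are being enclosed by pregranulosa cells as primordial follicles.

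The deposited values are FPKM, in which fragment numbers are divided by gene length and by a scale for each library. Between 16800421 and 19565275 reads per library could be recovered from these values. Median-of-ratios factors (over genes, the median ratio of a library to the mean of all libraries) were equal in the 6 libraries, at 1.00 each. The values thus already carried such a scaling, and not one by read total alone. Bcas2 itself had 18.9, 21.9 and 18.3 FPKM in the cKO libraries, against 54.5, 37.5 and 35.7 FPKM in the WT libraries (log2 fold change -1.05, SE 0.17, limma adjusted p = 0.955). The groups did not overlap, and an exact two-sided permutation test of these 6 values gave p = 0.1, the smallest that 3 against 3 allows. In each group 1 library stood apart from the rest. WT replicate 1 had the highest summed level of 10 endothelial markers, 168 FPKM, against 47.0 to 61.3 FPKM in the cKO libraries and 41.1 and 62.3 FPKM in the other WT libraries. It also had the highest sum of 10 stromal markers, 1642 FPKM, against 577 to 715 FPKM in the cKO libraries and 531 and 796 FPKM in the other WT libraries, and the lowest sum of 10 surface epithelium markers, 424 FPKM, against 678 to 827 FPKM in the cKO libraries and 711 and 847 FPKM in the other WT libraries. Its sum of 10 pericyte and smooth muscle markers was 101 FPKM, against 25.6 to 32.8 FPKM in the cKO libraries and 21.4 and 29.1 FPKM in the other WT libraries. cKO replicate 2 had 13770 FPKM over 11 erythroid markers, against 720.5 and 1268 FPKM in the other cKO libraries and 430.5 to 1246 FPKM in the WT libraries. The 12 oocyte markers, of the cell type in which Bcas2 was deleted, summed to 1313, 1556 and 1161 FPKM in the cKO libraries, against 1049, 1085 and 1572 FPKM in the WT libraries. No marker of these 6 lists was at 0 in all libraries. The main results on the ribosomal protein genes are therefore given with and without these libraries.

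The core genes were among the most abundant transcripts of the ovary. They made up 55 of the 100 protein-coding genes with the highest mean FPKM. Summed over the 77 core genes, FPKM reached 45166, 49783 and 41566 in the cKO libraries, against 34201, 41102 and 42513 in the WT libraries. That was 12.4, 12.3 and 11.6% of all FPKM in the cKO libraries, against 9.94, 11.6 and 11.7% in the WT libraries. Because the genes are short, the same transcripts took a smaller part of the reads, 3.99, 4.25 and 3.68% in the cKO libraries against 2.92, 3.59 and 3.70% in the WT libraries. In each measure WT replicate 1 was the lowest library, and cKO replicate 3 lay between the other 2 WT libraries. The group means of the summed FPKM were 45505 ± 4119 in cKO and 39272 ± 4448 in WT (SD, n = 3 each), a ratio of 1.16. Without cKO replicate 2 and WT replicate 1 the ratio was 1.04. In TPM, a rescaling in which every library has the same total, the ratio was 1.09.

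Single core genes spanned 1.45 to 1617 FPKM in their mean over the 6 libraries, with a median of 508 FPKM. Of the 77, 41 had a mean of at least 500 FPKM and 6 lay under 100 FPKM. Highest was Rplp1, a stalk protein of the large subunit, with 1715, 1881 and 1576 FPKM in the cKO libraries, against 1138, 1618 and 1772 FPKM in the WT libraries. Rps14, whose loss underlies the anaemia of the human 5q- syndrome, followed with 1327, 1403 and 1193 FPKM in the cKO libraries, against 992, 1268 and 1254 FPKM in the WT libraries. Rps26, a small-subunit protein that contacts the mRNA at its exit from the ribosome, had 1296, 1399 and 1184 FPKM in the cKO libraries, against 920.3, 1274 and 1199.7 FPKM in the WT libraries. In these 3 genes WT replicate 1 was the lowest library and the groups overlapped. Toward the low end stood Rpl34 and, lowest of the core genes, Rpl28 with 1.04, 1.32 and 1.09 FPKM in the cKO libraries, against 1.50, 2.32 and 1.44 FPKM in the WT libraries, and for both genes other loci of near-identical sequence held reads. Among the 7 paralogues with a mean of over 1 FPKM, only Rpl22l1 and Rpl36al exceeded 100 FPKM.

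**Figure D1:**
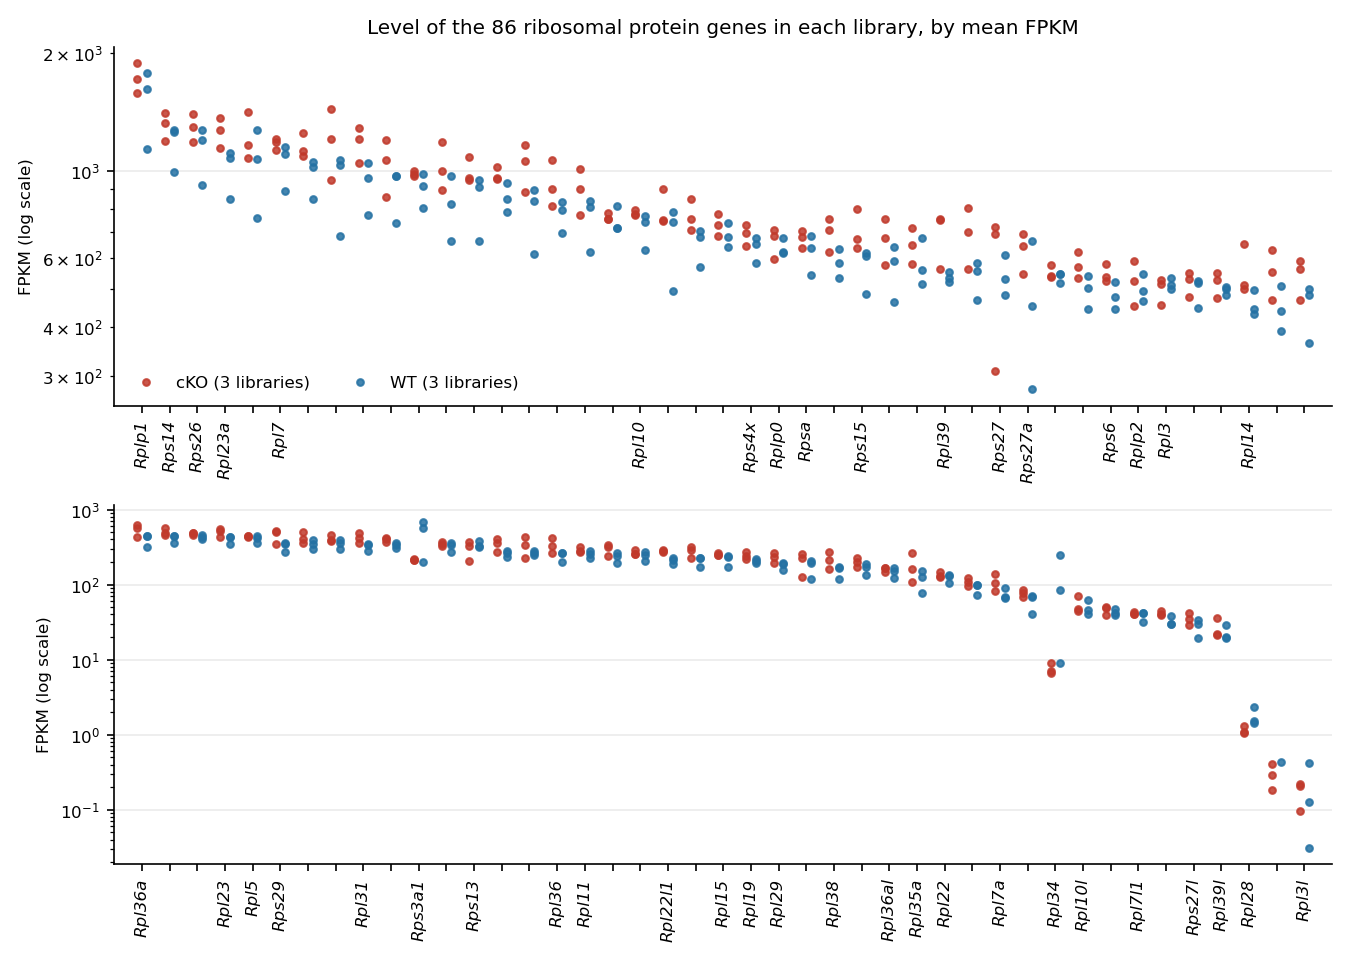
FPKM on a log axis of the 86 members, ordered by mean FPKM over the 6 libraries, with the 3 cKO libraries left (red) and the 3 WT libraries right (blue) of each gene's position. Values of 0 (2 WT libraries of Rpl32l) cannot be drawn. Most genes described in the text are named on the axis. Most core genes lie between 100 and 2000 FPKM with overlapping groups, while Rpl34 spreads from 6.64 to 250.1 FPKM.

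No ribosomal protein gene passed the test between cKO and WT ovaries, but most core genes leaned the same way. All 77 core genes and 7 of the 9 paralogues passed the filter on low values (at least 1 FPKM in at least 3 libraries) and were tested with limma on log2(FPKM + 1) among 14589 genes. None of the 84 had an adjusted p under 0.05 (Benjamini-Hochberg), and over all tested genes 0 of 14589 did (0%). With an unadjusted p under 0.05 there were 5 core genes, or 6.49% of them, against 443 of all tested genes (3.04%). Of the 5, 4 were higher in cKO (276 of all tested genes, 1.89%) and 1 was lower (167 of all tested genes, 1.14%). This count depended on single libraries. Leaving out cKO replicate 3 gave 13 core genes (702 of all tested genes), leaving out cKO replicate 1 gave 3 (293 of all) and leaving out cKO replicate 2 gave 1 (253 of all). With WT replicate 1 left out the count was 1 (527 of all), and with WT replicate 2 left out it was 0 (482 of all). A limma-voom fit, which weights the recovered reads and also scales them to each library's read total, called none either. It gave 20 core genes with an unadjusted p under 0.05, 19 of them higher in cKO. Of all tested genes 379 (2.6%) had such a p in that fit, 268 of them higher in cKO. With its scaling 8261 of all tested genes had a positive log2 fold change (cKO minus WT), against 7098 in the main fit.

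The log2 fold change (cKO minus WT) was positive for 71 of the 77 core genes, against 7098 of all 14589 tested genes (48.7%). Its median over the core genes was 0.25, against -0.0058 over all tested genes. The small and large subunits had medians of 0.24 (28 of 31 genes positive) and 0.26 (43 of 46 positive). The SE of a single core gene had a median of 0.16, and the half-width of its 95% interval had a median of 0.37. This interval held 0 for 72 of the 77. For 73 of the 77 the upper bound of that interval lay under 1, a doubling of FPKM + 1. The balance of the subunits overlapped between the groups: the large subunit's summed FPKM was 1.35, 1.38 and 1.37 times the small subunit's in the cKO libraries, against 1.32, 1.34 and 1.35 times in the WT libraries.

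In 16 core genes the 3 cKO libraries each exceeded every WT library (20.8% of the core genes, against 613 of all tested genes, 4.2%), and in 1, Rpl28, each was lower (536 of all tested genes, 3.67%). Groups without overlap, in either direction, were found in 1149 of all tested genes (7.88%). The libraries of each group also differed among themselves. WT replicate 1 was the lowest of the 6 libraries for 60 core genes, and cKO replicate 2 was the highest for 58. Relative to each gene's own mean over the libraries, the median deviation on the log2 scale was 0.096, 0.27 and -0.0024 in the cKO libraries, against -0.31, -0.044 and 0.013 in the WT libraries. The median for cKO replicate 3 thus lay between those of WT replicates 2 and 3. Without WT replicate 1, the library high in endothelial and stromal markers, the median log2 fold change was 0.13 (68 of 77 positive). Without cKO replicate 2, the library high in erythroid markers, it was 0.16 (72 of 77 positive). Without both it was 0.061 (59 of 77 positive), with 0 core genes at an unadjusted p under 0.05. The summed oocyte markers, too, were lowest in WT replicate 1, and among the cKO libraries they were highest in cKO replicate 2. The part of any of these markers in the result was not tested. In bulk tissue, fewer cells of a type and less RNA per cell cannot be told apart.

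**Figure D2:**
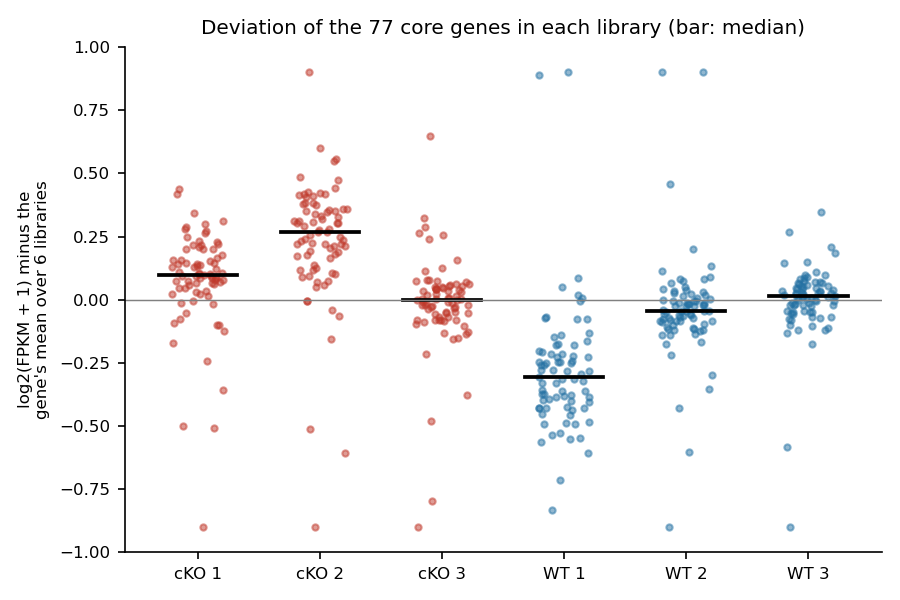
Deviation of log2(FPKM + 1) of each of the 77 core genes from its own mean over the 6 libraries, with 1 point per gene, cKO libraries left (red) and WT libraries right (blue), and a black bar at the median. 9 values of 4 genes beyond 0.9 on either side are drawn at that limit. WT replicate 1 (median -0.31) and cKO replicate 2 (median 0.27) lie farthest from 0.

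Gene length moved with the fold change across the whole table. The core genes had a median length of 821 bases in the table, against 3329 bases for all tested genes. When the tested genes were split into sixths by length, the median log2 fold change was 0.16 in the shortest sixth (28 to 1317 bases, 73.4% positive) and -0.093 in the longest sixth (23.5% positive), with the 4 others in between and in order. The 58 core genes that fall in the shortest sixth had a median of 0.26 with 53 positive (91.4%), and 12 of them (20.7%) had all cKO above all WT values, against 227 of the 2433 genes in that sixth (9.33%). Library by library, the median deviation of the shortest sixth of all genes was 0.060, 0.20 and -0.036 in the cKO libraries, against -0.22, -0.028 and 0.017 in the WT libraries, the same order of libraries as for the core genes within the WT group and within the cKO group. After a smooth trend with length had been removed from each library, the core median was 0.097 (59 of 77 positive). After quantile normalization, which gives all libraries the same distribution, it was 0.034 (48 of 77 positive). In TPM it was 0.17 (65 of 77 positive) while the median of all genes moved to -0.082. The direction of the core median held under each of these scalings, whereas its size did not. How length enters these libraries was not tested.

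**Figure D3:**
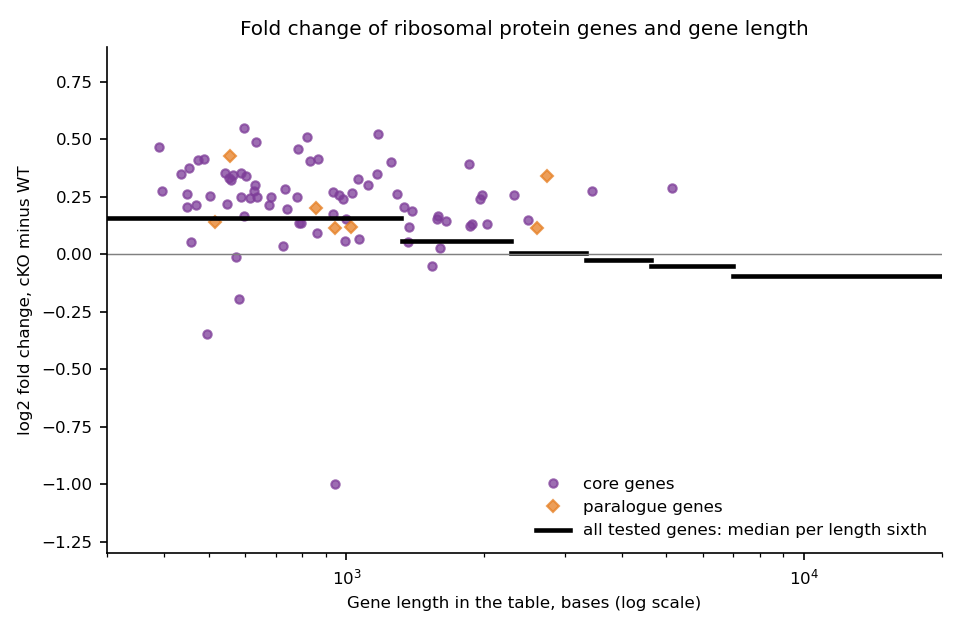
Log2 fold change (cKO minus WT) against gene length on a log axis for core genes (circles) and the 7 tested paralogues (diamonds), with black lines at the median of all tested genes in each length sixth. Rpl34, at -2.81, lies below the plotted range. Most core genes lie above 0, as does the median of the shortest sixth of all genes (0.16).

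The P stalk, which recruits elongation factors, is built from Rplp0, Rplp1 and Rplp2. Rplp0 had 596, 683 and 708 FPKM in the cKO libraries, against 618, 623 and 673 FPKM in the WT libraries, a log2 fold change of 0.051 (SE 0.13). Rplp2 had 453, 591 and 524 FPKM in the cKO libraries, against 466, 495 and 546 FPKM in the WT libraries, a log2 fold change of 0.052 (SE 0.14). Rplp1 was at 0.21 (SE 0.21), so none of the 3 differed by more than 2 SE, and all 3 changed sign under quantile normalization and removal of the length trend. Rpl5 and Rpl11, which form the 5S particle and, like Rpl23, bind MDM2 when ribosome assembly fails, were at 0.13 (SE 0.13), 0.17 (SE 0.13) and 0.33 (SE 0.15 for Rpl23) on the log2 scale. Rpl5 itself had 448, 444 and 435 FPKM in the cKO libraries, against 353, 415 and 449.5 FPKM in the WT libraries. WT replicate 1 was the lowest of the 6 libraries and WT replicate 3 the highest.

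Rps6, the substrate of the S6 kinases downstream of mTOR, had 538, 578 and 525 FPKM in the cKO libraries, against 444, 477 and 521 FPKM in the WT libraries (log2 fold change 0.19, SE 0.12, limma adjusted p = 0.955). Its groups did not overlap, by a margin of 3.81 FPKM between the lowest cKO and the highest WT library. Rpsa, a small-subunit protein also known as the laminin receptor precursor, had 680.1, 704 and 635 FPKM in the cKO libraries, against 543, 635 and 682 FPKM in the WT libraries, a log2 fold change of 0.12 (SE 0.14). Rps27a, which is made as a fusion with ubiquitin, varied more: it had 643, 693 and 545 FPKM in the cKO libraries, against 454, 278 and 664 FPKM in the WT libraries. WT replicate 2 was its lowest library and WT replicate 3 its second highest, and its log2 fold change of 0.51 had an SE of 0.30. Of the 4 X-linked core genes, Rps4x was at 0.12 (SE 0.13), Rpl10 at 0.13 (SE 0.13), Rpl39 at 0.35 (SE 0.15) and Rpl36a at 0.41 (SE 0.19) on the log2 scale. Rpl10, which joins the large subunit late in its assembly, had 795, 772 and 775 FPKM in the cKO libraries, against 631, 743 and 767 FPKM in the WT libraries, and its groups did not overlap, whereas it changed sign under quantile normalization and removal of the length trend.

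The most positive fold changes among all members were those of 6 core genes. Rpl35a, mutated in some human families with Diamond-Blackfan anaemia, had 107, 260.0 and 164 FPKM in the cKO libraries, against 76.5, 151 and 126 FPKM in the WT libraries. The single values scattered more than the groups differed (log2 fold change 0.55 with an SE of 0.37). Rpl7a was at 0.52 (SE 0.21) from its own row. With the rows of other loci that share its Swiss-Prot entry added it was at 0.28 (SE 0.12), and its own row held 40.5 to 61.2% of that sum across libraries. Rps27a was at 0.51, Rpl38 at 0.49 (SE 0.22), Rps29 at 0.46 (SE 0.20) and Rpl36 at 0.46 (SE 0.19). Rpl38, known in mice for its part in the translation of Hox mRNAs, had 212, 269 and 161 FPKM in the cKO libraries, against 119, 169 and 165 FPKM in the WT libraries. Its highest and lowest values were again those of cKO replicate 2 and WT replicate 1. The groups overlapped in all 6, and limma gave each an adjusted p of 0.955.

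Among the genes without overlap, Rpl31, a protein near the exit of the peptide tunnel, had 420.3, 491 and 358 FPKM in the cKO libraries, against 276, 344 and 338 FPKM in the WT libraries (log2 fold change 0.40, SE 0.16, limma adjusted p = 0.955). The lowest cKO value stood 14.5 FPKM above the highest WT value. Rpl39, also at the tunnel exit, had 751, 755 and 562 FPKM in the cKO libraries, against 521, 535 and 552 FPKM in the WT libraries. Here the 3 WT libraries were close together and cKO replicate 3 was close to them. Rpl29 had 232, 263 and 194 FPKM in the cKO libraries, against 154, 194 and 191 FPKM in the WT libraries. The large-subunit genes Rpl14, Rpl15, Rpl19 and Rpl23a and the small-subunit gene Rps15 had log2 fold changes of 0.27, 0.26, 0.26, 0.32 and 0.30, with SEs of 0.12 to 0.17. None of these had an adjusted p under 0.955 in limma.

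The 4 most negative fold changes, of Rpl34, Rps3a1, Rpl28 and Rps13, were those of genes whose reads were divided over several loci. Such a division was also found in genes with positive fold changes, beside Rpl7a. With rows of the same Swiss-Prot entry added, Rpl35a went from 0.55 to 0.46 and Rpl29 from 0.35 to 0.28. Their own rows held 52.6 to 82.7% and 52.8 to 59.3% of those sums across libraries. Rpl34, a large-subunit protein gene on chromosome 3, had 6.64, 9.09 and 7.11 FPKM in the cKO libraries, against 250.1, 85.02 and 8.96 FPKM in the WT libraries (log2 fold change -2.81, SE 1.05, limma adjusted p = 0.955). The 3 cKO libraries and WT replicate 3 were alike, and only WT replicates 1 and 2 were high. Rpl34-ps1, an intronless copy on chromosome 6 that the table lists as protein-coding, had 992, 1052 and 962 FPKM in the cKO libraries, against 17.9, 661 and 961 FPKM in the WT libraries. The copy was thus far lower in WT replicate 1, where Rpl34 was highest. In WT replicate 2 it was lower than in the cKO libraries but still above Rpl34. When depth-scaled fragments (FPKM times gene length in kilobases) of all rows that share the Swiss-Prot entry of Rpl34 were added (16 other rows, 13 of them above 0), the family came to 423, 449.7 and 415 depth-scaled fragments in the cKO libraries, against 315, 382 and 415 in the WT libraries. Rpl34 itself held 1.92, 2.47 and 2.1% of them in the cKO libraries, against 97.0, 27.2 and 2.64% in the WT libraries. The summed family had a log2 fold change of 0.22 with an SE of 0.13, against -2.81 for the single row.

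In sequence these loci differ at few bases. The copy aligned to the coding sequence of Rpl34 over 354 bases with 2 differing bases. Both stretches that hold a difference follow, counted from the ATG, with the differing base in capitals (GENCODE M21, GRCm38).
Rpl34, bases 102 to 162: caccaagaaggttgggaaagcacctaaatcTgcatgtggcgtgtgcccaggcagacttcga
Rpl34-ps1, bases 102 to 162: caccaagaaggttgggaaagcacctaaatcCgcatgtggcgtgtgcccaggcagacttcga
Rpl34, bases 288 to 348: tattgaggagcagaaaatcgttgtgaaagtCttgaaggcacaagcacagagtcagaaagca
Rpl34-ps1, bases 288 to 348: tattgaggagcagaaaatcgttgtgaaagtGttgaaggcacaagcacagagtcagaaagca
Of the 305 words of 50 bases in the copy's transcript, 218 (71.5%) also occur in the Rpl34 transcript. The sources used here do not say how the authors' counting treated reads that match several loci.

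Rps3a1, a small-subunit gene on chromosome 3, had 213, 212 and 216 FPKM in the cKO libraries, against 560.0, 691 and 202 FPKM in the WT libraries (log2 fold change -0.999 with an SE of 0.43). Its copies Rps3a2 on chromosome 14 and Rps3a3 on chromosome 13, listed as pseudogenes, ran the other way. Rps3a2 had 526, 505 and 547 FPKM in the cKO libraries, against 200.3, 262 and 584 FPKM in the WT libraries. Rps3a3 had 466, 478 and 386 FPKM in the cKO libraries, against 163, 181 and 414 FPKM in the WT libraries. For all 3 loci WT replicate 3 was at the level of the cKO libraries, and WT replicates 1 and 2 differed. The summed family came to 1071, 1060.5 and 1024 depth-scaled fragments in the cKO libraries, against 848, 1043 and 1067 in the WT libraries, a log2 fold change of 0.1 with an SE of 0.14. The 2 copies differ from the coding sequence of Rps3a1 at 4 of 792 and 9 of 795 aligned bases. The stretch of bases 204 to 272 from the ATG (capitals: bases that differ between the 3 loci) is shown.
Rps3a1: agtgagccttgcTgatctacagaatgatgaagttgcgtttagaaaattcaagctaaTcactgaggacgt
Rps3a2: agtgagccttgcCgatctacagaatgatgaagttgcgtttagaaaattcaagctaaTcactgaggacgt
Rps3a3: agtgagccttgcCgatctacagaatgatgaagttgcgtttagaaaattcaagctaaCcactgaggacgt

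In Rps27, too, the division changed between libraries. Rps27, a zinc-finger protein of the small subunit, had 719, 689 and 308 FPKM in the cKO libraries, against 484, 529.5 and 610.4 FPKM in the WT libraries. Its copy Rps27rt on chromosome 9, also listed as protein-coding, had 130.1, 237 and 631 FPKM in the cKO libraries, against 203, 241 and 80.2 FPKM in the WT libraries, so cKO replicate 3 was the library with the lowest value of Rps27 and the highest of Rps27rt. Over 307 aligned bases the 2 transcripts had 0 differing bases. Summed, the family's log2 fold change was 0.26 (SE 0.12), against -0.011 (SE 0.33) for Rps27 alone. Rpl28 was listed at a few FPKM only, from 9, 11 and 10 recovered reads in the cKO libraries, against 13, 20 and 14 in the WT libraries. It held 1.60 to 4.47% of its family's fragments across the libraries. Its copy Rpl28-ps1 on chromosome 1 was at 57.5, 61.3 and 56.4 FPKM in the cKO libraries, against 47.5, 42.8 and 47.7 FPKM in the WT libraries. The whole family was low too, at 32.4, 35.8 and 31.6 depth-scaled fragments in the cKO libraries, against 27.0, 25.7 and 27.6 in the WT libraries. The 414 bases of the copy's transcript had 0 differing bases in the alignment to Rpl28. Rpl28 alone was the 1 core gene that was lower in each cKO than in any WT library (log2 fold change -0.35), and its summed family had a log2 fold change of 0.31 (SE 0.090, limma adjusted p = 0.959). Rps13, at -0.19 alone, was at -0.017 with its copies added. Rpl3, by contrast, held 92.0 to 93.3% of its family's fragments across the libraries and was at -0.051 alone and -0.042 with its copies added.

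Copies, taken as other rows with the core gene's Swiss-Prot entry, were found for all 76 core genes with such an entry of their own. The 1 other of the 77 core genes could not be searched in this way and entered with its own row alone. The copies were 1259 rows of the table, 714 of them above 0 in some library. Sequences were compared only for the copies whose differing bases are given above. In 44 families the member held at least 90% of the fragments in every library. In 7 the member's share spanned over 20 percentage points between libraries, and in 5 (Rpl34, Rps3a1, Rpl28, Rps27 and Rpl7a) adding the copies moved the log2 fold change by over 0.2, down for Rpl7a and up for the other 4. With all copies added, 75 of the 77 core genes had a positive log2 fold change, with a median of 0.26 and a range of -0.042 to 0.52. None was called, and 4 had an unadjusted p under 0.05, against 419 of 14409 tested rows (2.91%).

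**Figure D4:**
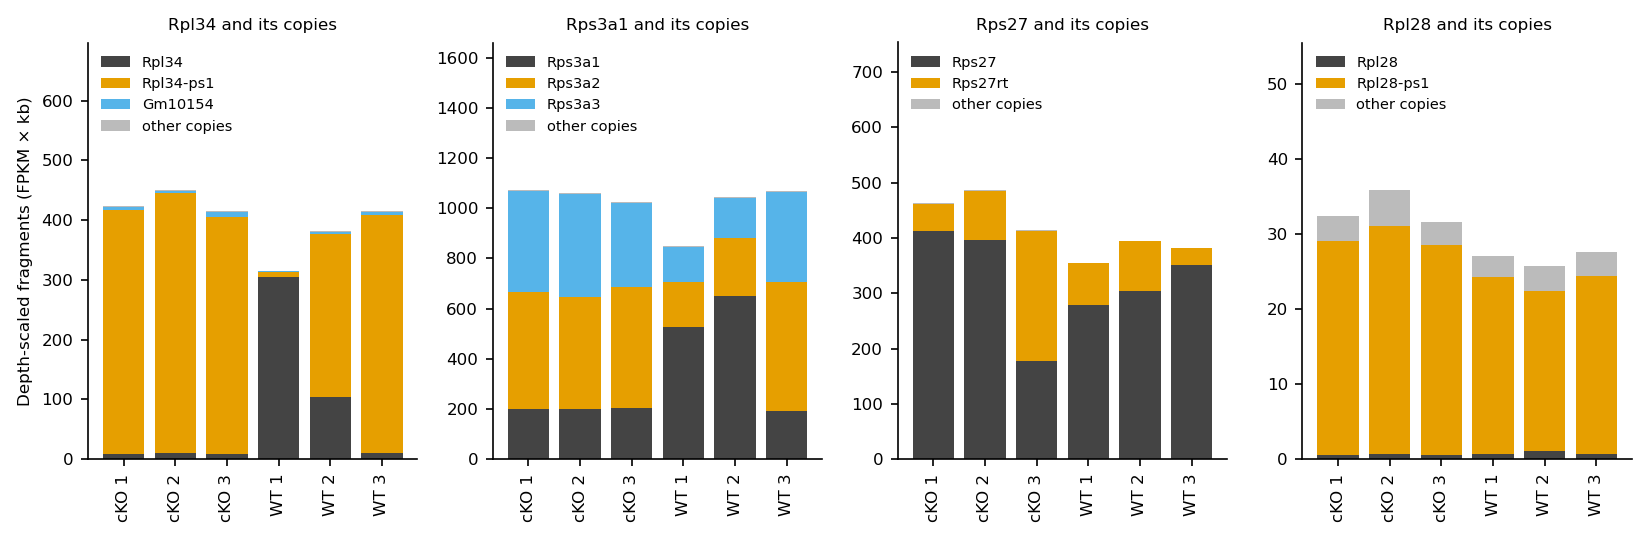
Depth-scaled fragments (FPKM times gene length in kilobases) of 4 core genes (dark) and of the other table rows with the same Swiss-Prot entry, stacked for the 3 cKO and the 3 WT libraries; each panel has its own axis. The Rpl34 total lies between 315 and 449.7 depth-scaled fragments in all libraries, while the part on Rpl34 itself is large only in WT replicates 1 and 2.

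The 9 paralogues are set apart because several are known from other tissues. Rpl22l1, a close relative of Rpl22 that Rpl22 protein represses in mice, had 282, 292 and 271 FPKM in the cKO libraries, against 187, 213 and 228 FPKM in the WT libraries (log2 fold change 0.43, SE 0.11, limma adjusted p = 0.955). It was the 1 paralogue whose groups did not overlap, and its unadjusted p was the smallest of all 84 tested members. Its log2 fold change stayed positive under every alternative run, between 0.22 and 0.49, and its adjusted p was never under 0.599. Rpl22 itself had 132, 145 and 127 FPKM in the cKO libraries, against 105, 128 and 133 FPKM in the WT libraries (log2 fold change 0.15 with an SE of 0.12). As a share of Rpl22l1 plus Rpl22 FPKM, Rpl22l1 made up 68.1, 66.8 and 68.1% in the cKO libraries, against 64.1, 62.5 and 63.2% in the WT libraries. The mean share was 67.7 ± 0.734% in cKO and 63.3 ± 0.814% in WT (SD, n = 3 each), 4.38 points apart, and 3.98 to 4.80 points apart when any 1 library was left out. Rpl22l1 is listed with 556 bases and Rpl22 with 2497, and among all tested genes shorter ones had higher fold changes. The share was not recomputed with the length trend removed. In this share cKO replicate 2 was the lowest cKO library and WT replicate 1 the highest WT library, whereas in the summed level of the core genes they were the highest and the lowest. In ovaries of both groups the paralogue was listed above its parent per length.

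Rpl36al, a relative of X-linked Rpl36a on chromosome 12, had 166, 167 and 148 FPKM in the cKO libraries, against 122, 152 and 165 FPKM in the WT libraries (log2 fold change 0.14 with an SE of 0.14). Its share of the pair was 22.9, 21.3 and 25.3% in the cKO libraries, against 27.6, 25.4 and 27.0% in the WT libraries. The mean difference was -3.53 points, and cKO replicate 3 lay just under WT replicate 2. Rps27l, which p53 is known to induce, had 34.6, 42.1 and 28.6 FPKM in the cKO libraries, against 19.7, 30.1 and 34 FPKM in the WT libraries (log2 fold change 0.34 with an SE of 0.22). Its share against Rps27 was 4.6, 5.75 and 8.48% in the cKO libraries and 3.9, 5.37 and 5.28% in the WT libraries, with the highest share in cKO replicate 3, where Rps27 was low and Rps27rt high.

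Rpl10l, a retrogene that replaces X-linked Rpl10 in male meiosis of mice, had 44.5, 70.2 and 47.9 FPKM in the cKO libraries, against 40.7, 45.5 and 62.6 FPKM in the WT libraries (log2 fold change 0.12 with an SE of 0.22). Rpl39l, enriched in male germ cells, had 22.3, 35.8 and 21.5 FPKM in the cKO libraries, against 19.6, 19.8 and 28.5 FPKM in the WT libraries (log2 fold change 0.20 with an SE of 0.23). The groups overlapped for both genes, and cKO replicate 2 was the highest library in each. Rpl7l1 was at 0.12 (SE 0.12) and Rpl6l at 0.11 (SE 0.13) on the log2 scale. Their shares against Rpl7 and Rpl6 averaged 3.44 and 8.76% in cKO, against 3.56 and 8.96% in WT. Rpl7 had 1209.8, 1185 and 1128 FPKM in the cKO libraries, against 890.0, 1103 and 1149.9 FPKM in the WT libraries. Rpl3l, which replaces Rpl3 in striated muscle, was listed at under 0.5 FPKM in every library and did not pass the filter, while Rpl3 had 515, 456 and 527 FPKM in the cKO libraries, against 514, 502 and 535 FPKM in the WT libraries (log2 fold change -0.051 with an SE of 0.12). Rpl32l was likewise under 0.5 FPKM, with 0 in 2 of the WT libraries. Rpl6l and Rpl32l were paired with their parents after the table had been seen.

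**Figure D5:**
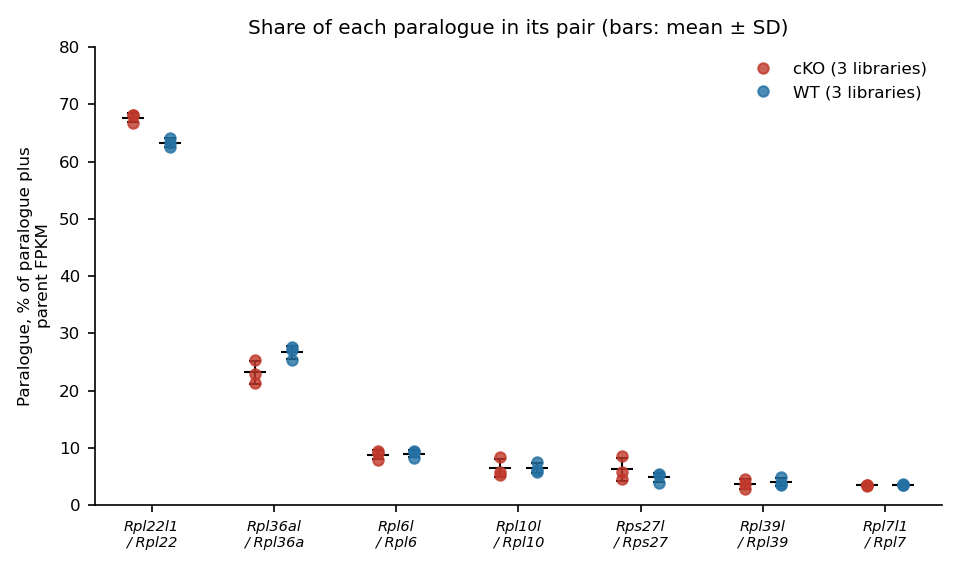
Paralogue FPKM as a percentage of paralogue plus parent FPKM for the 7 tested pairs, with 1 point per library, cKO left (red) and WT right (blue), and bars at the mean ± SD (n = 3 each). Rpl22l1 lies at 66.8 to 68.1% in cKO and 62.5 to 64.1% in WT, and the other pairs differ by less or overlap.

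The symbol rule leaves out subunits of the cytosolic ribosome whose genes have other names. Fau, which encodes RPS30 as a fusion, had 370.4, 452 and 361 FPKM in the cKO libraries, against 291, 355 and 368 FPKM in the WT libraries (log2 fold change 0.22 with an SE of 0.15). Rack1, the scaffold at the head of the small subunit, had 666, 646 and 666 FPKM in the cKO libraries, against 594, 610.3 and 644 FPKM in the WT libraries (log2 fold change 0.098 with an SE of 0.11). Fau was highest in cKO replicate 2 and lowest in WT replicate 1, as most core genes were. All 3 Rack1 values of cKO lay above those of WT by a narrow margin, and Rack1 turned negative under quantile normalization and removal of the length trend.

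Other genes of the translation machinery were counted in the same fit, and no member of any of these lists had an adjusted p under 0.05 in limma, in either direction. Among 25 translation factors 12 were positive and 13 negative, with a median log2 fold change of -0.0094, and the smallest p belonged to Naca, the alpha subunit of the nascent polypeptide-associated complex, with 47.9, 49.8 and 41.9 FPKM in the cKO libraries, against 35.6, 38.5 and 43.6 FPKM in the WT libraries (log2 fold change 0.24, SE 0.11, limma adjusted p = 0.955). Among 44 nucleolar and ribosome assembly factors 25 were positive, with a median of 0.016. Mdn1, the AAA ATPase that remodels large-subunit precursors, had the smallest p there, with 16.9, 17.1 and 16.6 FPKM in the cKO libraries, against 19.2, 19.7 and 22.2 FPKM in the WT libraries (log2 fold change -0.25, SE 0.093, limma adjusted p = 0.955). It lay lower in all 3 cKO than in all 3 WT libraries. It was the 1 gene of the 44 without overlap (2.27%, against 7.88% of all tested genes). Mdn1 is listed with 18232 bases, and among all tested genes longer ones had lower fold changes. The 11 RNA polymerase I genes found in the table (of 14 listed) had a median of 0.021, with 7 positive. The 18 genes of mTORC1, MYC and the MDM2-p53 arm had a median of -0.0069, with 9 positive. Cdkn1a, the cyclin-dependent kinase inhibitor downstream of p53, had the smallest p of that list, with 8.08, 6.19 and 7.90 FPKM in the cKO libraries, against 4.23, 6.19 and 5.10 FPKM in the WT libraries (log2 fold change 0.45, SE 0.16, limma adjusted p = 0.955).

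The 78 mitochondrial ribosomal protein genes had a median log2 fold change of 0.14, with 66 positive. In 6 of them (7.69%, against 4.2% of all tested genes) all cKO lay above all WT values and in 1 all lay below, so that 8.97% had no overlap, against 7.88% of all tested genes. Mrpl53 had the smallest p, with 28.9, 31.2 and 29.9 FPKM in the cKO libraries, against 23.3, 25.9 and 20.6 FPKM in the WT libraries (log2 fold change 0.36, SE 0.11). Their summed FPKM was 2145, 2599 and 2081 in the cKO libraries, against 1787, 2009 and 2256 in the WT libraries, so WT replicate 1 was lowest and cKO replicate 2 highest here too. Of 210 rows named as processed ribosomal protein pseudogenes, 64 passed the filter, and 57 of those were positive with a median of 0.23. In 12 of the 64 (18.8%, against 4.2% of all tested genes) all cKO lay above all WT values, and in 0 all lay below. Rpl28-ps1, a copy described above, is among these rows, so they are not a list separate from the core genes and their copies. Rpl19-ps11 had the smallest p of these, with 25.5, 26.4 and 24.8 FPKM in the cKO libraries, against 16.2, 18.9 and 20 FPKM in the WT libraries. Summed, the 210 rows came to 3264, 3375 and 2708 FPKM in the cKO libraries, against 2263, 2847 and 2728 FPKM in the WT libraries.

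The promoters of the core genes share sequence features that the rule did not use. A RefSeq window of 300 bases, from 250 before to 50 after the transcription start (GRCm38.p6), was found for 65 of the 86 members, with 67 windows for 57 core genes. The letters CTTCCG, the core of an ETS-factor motif, occurred on either strand in 62.7% of the core windows, against 16.9% of all 32851 windows. The pyrimidine run CTCTTTC was in 31.3% of core windows, against 8.16% of all, and the GC box GGGCGG in 61.2%, against 35.7%. TATAAA was in 8.96% of core windows, against 13.6% of all. GGGCGG and CGGAAG, the other strand of CTTCCG, can share bases where they abut. A match is a description of the letters and not a binding site. Whether these letters go with the fold changes was not tested. The bases around the start of 4 members are shown, 50 before and 20 after it, with matches to CTTCCG or CTCTTTC on either strand in capitals.
Rps6 (chr4:86857348-86857417, minus strand): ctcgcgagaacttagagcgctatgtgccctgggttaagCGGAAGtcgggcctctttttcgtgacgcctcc
Rpl31 (chr1:39367801-39367870, plus strand): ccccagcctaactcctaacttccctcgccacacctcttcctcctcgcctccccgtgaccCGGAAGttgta
Rpl28 (chr7:4792915-4792984, plus strand): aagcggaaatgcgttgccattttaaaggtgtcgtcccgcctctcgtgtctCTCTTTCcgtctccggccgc
Rpl22l1 (chr3:28805458-28805527, plus strand): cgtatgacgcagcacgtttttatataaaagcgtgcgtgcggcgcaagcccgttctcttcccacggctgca
Rps6 and Rpl31 each carry the ETS letters close to the start, Rpl28 carries the pyrimidine run at the start itself, and Rpl22l1 has neither in these 70 bases. The Rpl22l1 stretch does hold TATAAA before the start, which is not marked by capitals.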

How the data were processed

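RNA of 6 whole-ovary samples (3 cKO, 3 WT) was sequenced, with groups and replicates as the titles give them. FPKM values were deposited by the authors for all rows. The submitters' processing notes name HISAT2 2.0.5, with mm10 and GRCm39 both listed as builds, and the table's coordinates are those of GRCm39. The sources used here do not give the counter, the strand setting or the treatment of multi-mapping reads. FPKM times length gave whole multiples of 1 step per library (100% of values up to 200 reads within 0.05 of a whole read). Median-of-ratios factors of the deposited values were equal in the 6 libraries (1.00 each), so the values already carried this scaling.

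Values were tested as log2(FPKM + 1), so fold changes of low genes are understated, with limma 3.58.1 (R 4.3.3; eBayes with a trend, two-sided, Benjamini-Hochberg over 14589 genes, threshold 0.05), which was tested on simulated data. limma-voom, summing of copies and leaving out both libraries that stood apart were chosen after seeing the data. Copies were rows with the core gene's Swiss-Prot entry in the deposited description. Alignments used Biopython 1.88. Genes were named by role, by level (3 highest and 3 lowest), by the 6 largest fold changes each way, by up to 12 without overlap, and by the smallest p of a list. Members and lists were chosen with earlier results of these data known. Promoter and transcript sequences are on GRCm38, and no coordinates were converted. Some genes that these rules name are not reported here.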

Additional observations from a re-analysis of the deposited data

How the results depend on the processing

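No ribosomal protein gene and no gene of the translation and ribosome lists was called under any alternative run, and over all genes 0 were called, except 1 without cKO replicate 2 (Pcna-ps2, named after its value was seen) and 1 without both cKO replicate 2 and WT replicate 1. The median log2 fold change of the core genes (0.25) stayed positive throughout: it was 0.097 with the length trend removed, 0.034 after quantile normalization, 0.061 without both libraries named above, and 0.061 to 0.31 over all fits that leave libraries out. The ratio of summed core FPKM (1.16) ranged from 1.09 to 1.21 when 1 library was left out, was 1.04 without both libraries and was 1.16 with the pseudogenes added. Median-of-ratios scaling changed no value by a printed digit. It could not, because its factors were equal in the 6 libraries, and so it is no check of the scaling. Bcas2 stayed negative, at -1.16 to -0.86 when 1 library was left out. The Rpl22l1 share differed by 3.98 to 4.80 points when 1 library was left out, and it was not recomputed with the length trend removed.

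Of 49 single genes followed, 24 changed sign somewhere, none with an adjusted p under 0.27 in limma. After quantile normalization the log2 fold changes were -0.052 for Rpl10, -0.11 for Rpl5, -0.092 for Rpl7, -0.16 for Rplp0, -0.11 for Rplp1, -0.14 for Rplp2, -0.029 for Rps14, -0.084 for Rps26, -0.092 for Rps4x, -0.080 for Rpsa and -0.10 for Rack1. With the length trend removed they were -0.028 for Rpl10, -0.0094 for Rpl10l, -0.077 for Rpl36al, -0.038 for Rplp0, -0.011 for Rplp1, -0.17 for Rplp2, -0.035 for Rps14, -0.023 for Rps26 and -0.0026 for Rack1. In TPM, Rplp0 and Rplp2 were at -0.030 each. With copies added, Rpl28 was at 0.31, Rpl34 at 0.22, Rps27 at 0.26 and Rps3a1 at 0.10, and limma-voom put Rps27 at 0.026. Leaving libraries out gave ranges of -0.21 to 0.30 for Rpl10l, -0.0099 to 0.21 for Rpl22, -0.091 to 0.014 for Rpl3, -0.057 to 0.86 for Rpl35a, -0.017 to 0.23 for Rpl36al, -0.12 to 0.37 for Rpl39l, -0.039 to 0.18 for Rpl7l1, -0.043 to 0.34 for Rplp1, -0.093 to 0.15 for Rplp2, -0.36 to 0.060 for Rps13, -0.0031 to 0.23 for Rps14, -0.27 to 0.38 for Rps27, -0.023 to 0.49 for Rps27l and -0.0018 to 0.20 for Rpsa. The cause of these changes was not tested.

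Libraries with the same number deviated from their group means with correlations of 0.22, 0.014 and -0.028, and cKO replicate 2 correlated best with WT replicate 3, so the numbers were not taken to pair the libraries. With the replicate number as a block, 0 genes were called and the core median was 0.25. The 3 libraries a group and a median SE of 0.16 limit what can be shown for a single core gene.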
